A study of Mus musculus with 6 samples.

Results

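The proteasome genes of mouse liver were compared between a short and a long fast. The genes were taken by name: protein-coding genes whose symbol is Psm, then a letter from a to g, then a digit, which gave 50 genes of 55471 gene lines. The livers came from male wild-type (WT) C57BL/6J mice, an inbred laboratory strain, with no allele or agent other than the time without food. The 4 h fast had 3 libraries and the 16 h fast had 3, and the same groups had been made to study sterol transport in liver. Total RNA of whole liver was sequenced, and reads were counted per gene. The mice's age was not given in the sources used here, and neither was whether each library was a separate mouse, so p-values measure the spread between these libraries. Whole liver mixes hepatocytes with other cells. Alb, the hepatocyte product albumin, stood between 54520 and 68170 CPM in the 6 libraries, where CPM is the count of a gene per 1000000 counts of its library, scaled between libraries by the TMM method.

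The proteasome is the chamber in which cells degrade proteins tagged with ubiquitin. Its barrel, the 20S core, has outer rings of alpha subunits (Psma genes) that gate the entry and inner rings of beta subunits (Psmb genes), of which Psmb5, Psmb6 and Psmb7 cut peptide bonds. The 19S regulator caps the barrel: its base unfolds the substrate with a ring of ATPases (Psmc genes), and its lid removes ubiquitin. Interferon gamma induces the immunoproteasome subunits Psmb8, Psmb9 and Psmb10, which replace Psmb5, Psmb6 and Psmb7 in newly built cores. Other caps (Psme genes) open the core without ubiquitin, and chaperones help in its assembly. In liver the proteasome works beside autophagy, the degradation route best known for its response to fasting.

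Of the 50 genes, 47 had enough counts to be tested. Psma8, the testis form of an alpha subunit, stood between 0.1235 and 0.4004 CPM and was not tested. Psmb11, the thymus form of a catalytic subunit, had 0 counts among 61452995 gene counts of the 4 h libraries, which allows up to 0.0488 CPM by counting error alone. It had 3 counts in the 16 h libraries, all of them in replicate 1. Psmc3ip fits the naming rule, but its product acts in meiotic recombination and is no proteasome subunit. It stood between 0.241 and 0.58 CPM and was not tested.

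After the 16 h fast, 7 of the 47 tested proteasome genes were higher and 6 were lower (edgeR quasi-likelihood test, Benjamini-Hochberg adjusted p under 0.05 over 13812 genes). Among all tested genes 9.18% were higher and 9.51% were lower. The genes that rose were Psmc1, Psmd1, Psmd2, Psmd3, Psmd9, Psme3 and Psme4, and those that fell were Psmb8, Psmb9, Psmb10, Psme1, Psme2 and Psmg2. The median log2 fold change of the 47 genes was 0.03, beside -0.03 over all tested genes. Of the 47 changes 24 were positive and 23 negative. Without the library of 4 h replicate 3, described below, 36 were positive and 11 negative with a median of 0.16, and 18 genes were higher and 4 lower, where 11.1% of all tested genes were higher and 9.73% lower. The 16 h libraries all lay above the 4 h libraries for 12 of the genes and all below for 9, where 19.7% of all tested genes lay above and 19.7% below. The counts of each substructure follow.

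**Figure D1:**
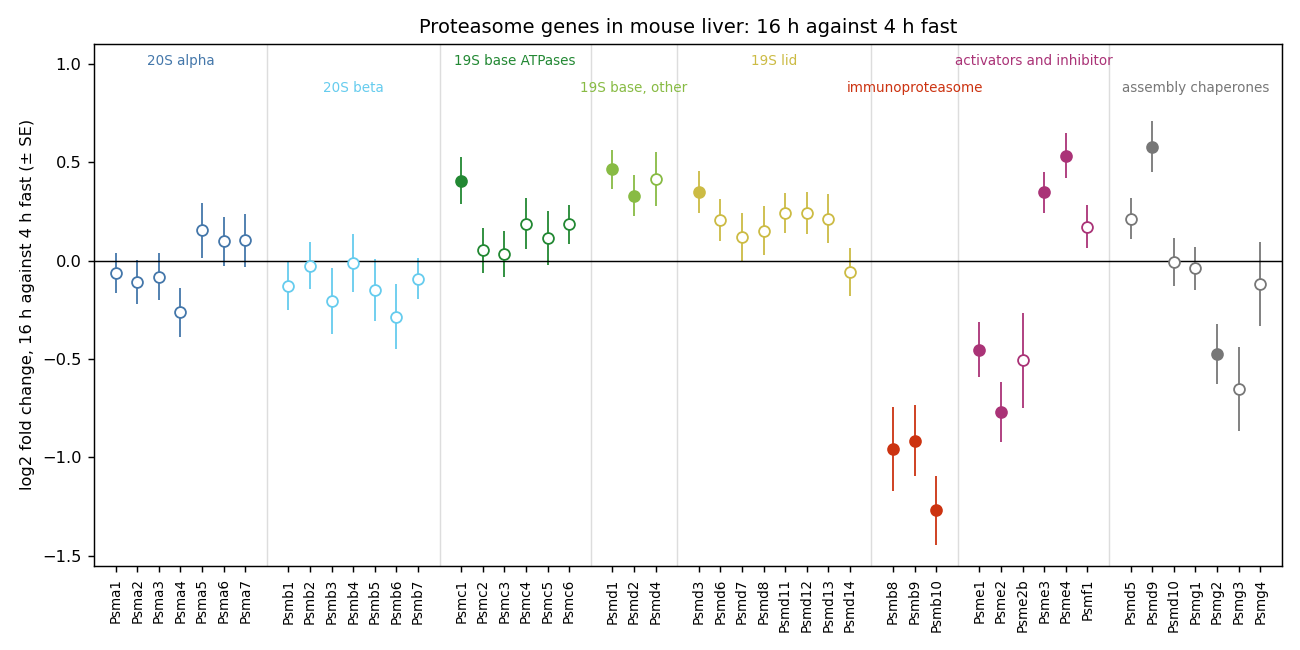
Log2 fold change of each tested proteasome gene (16 h against 4 h fast, vertical axis, bars ± SE), grouped by substructure on the horizontal axis, with filled symbols for genes past the test. The immunoproteasome genes are all below 0 and past the test, the 20S core genes lie between -0.29 and 0.15, and 16 of 17 genes of the 19S regulator lie above 0.

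The libraries held between 15173653 and 26572532 gene counts, with 19583 to 21980 genes counted at least once. The library of 4 h replicate 3 stood apart from the other 5. The 8 lung genes of a marker list summed to 187 CPM in it and to between 5.54 and 8.8 CPM elsewhere. Scgb1a1, the secretoglobin of airway club cells, was at 95.05 CPM there and at most 0.9342 CPM in the others. The 8 neutrophil genes summed to 17.3 CPM there and to between 2.13 and 5.06 CPM elsewhere. Its counts also ran with transcript length: coding genes with transcripts under 1000 bases stood a median log2 difference of 0.43 above its mates, and those over 4000 bases stood at -0.19. Most proteasome genes also stood higher in that library. All 14 genes of the 20S core and 15 of 17 of the 19S regulator were above the mean of the other 4 h libraries, by a median of 0.38 and 0.31. Over all tested coding genes this median was 0.27 for transcripts of 1000 to 1500 bases and 0.14 for those of 1500 to 2000 bases. The main results below are therefore also given without that library.

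Genes of the 20S core made no call in either direction. None of the 14 tested genes passed edgeR's test, none had an unadjusted p under 0.05, and DESeq2 also called none. Their log2 fold changes ran from -0.29 to 0.15 with a median of -0.09, 3 positive and 11 negative. The sign of this median is not stable: without 4 h replicate 3 it was 0.05, with 11 positive and 3 negative. Without that library the alpha subunits Psma5 (log2 fold change 0.34, adjusted p = 0.0187) and Psma7 (0.28, adjusted p = 0.0316) passed edgeR's test, beside 11.1% of all tested genes called higher in that fit. No core gene was called when any of the other 5 libraries was left out.

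The alpha ring genes, whose products form the gate, show the spread behind this. Psma4 stood at 112.1, 109.6 and 145.7 CPM after 4 h and at 100.3, 101.2 and 104.5 CPM after 16 h. Its groups did not overlap, with the 16 h libraries below. The log2 fold change was -0.26 ± 0.12 (SE, n = 3 and 3) and did not pass the test (edgeR adjusted p = 0.163). It was -0.11 without 4 h replicate 3. Psma5 stood at 71.99, 61.8 and 93.12 CPM after 4 h and at 82.3, 86.83 and 83.58 CPM after 16 h. The highest and the lowest values of Psma5 were both 4 h libraries, and the 16 h libraries sat between them. Psma1, Psma2, Psma3, Psma6 and Psma7 had overlapping groups as well.

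The beta ring genes, which include the catalytic subunits, had 7 negative changes of 7, from -0.29 to -0.01, and none was called. Psmb5, the chymotrypsin-like subunit, stood at 37.34, 35.51 and 54.68 CPM after 4 h and at 40.3, 35.37 and 39.2 CPM after 16 h. Psmb6, the caspase-like subunit, stood at 112.6, 115.7 and 179.6 CPM after 4 h and at 112.1, 109.7 and 112.7 CPM after 16 h. Psmb7, the trypsin-like subunit, stood at 69.82, 72.5 and 80.79 CPM after 4 h and at 66.77, 72.31 and 70.12 CPM after 16 h. In all 3 genes the highest library was 4 h replicate 3, and the groups overlapped. Without that library 5 of the 7 beta ring changes were positive, with a median log2 fold change of 0.06. The order of the core genes by level depends on the length used. Per kilobase of all annotated exon bases the lowest of the 14 was Psmb7 at 21.1 CPM, and per kilobase of the transcript with the longest coding stretch it was Psma2, with Psmb7 at 62.1 CPM. Psmb4 was the highest on both scales, at 97.0 and 160.0 CPM.

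Of the 17 genes of the 19S regulator under the naming rule, 4 were higher and none lower in edgeR. Among all tested genes 9.18% were higher and 9.51% lower. None of the 17 had an unadjusted p under 0.05 in the lower direction in edgeR. DESeq2 called 5 higher and none lower, where it called 5.37% of all genes higher and 4.77% lower. Sem1 and Adrm1, subunits of the regulator outside the naming rule, were named after their values were seen. Sem1 changed by -0.45 ± 0.20 (edgeR unadjusted p = 0.0441, adjusted p = 0.137), and by -0.18 without 4 h replicate 3. Adrm1 changed by 0.34 ± 0.14 (edgeR unadjusted p = 0.036, adjusted p = 0.12), and by 0.55 without that library (adjusted p = 8.53e-04). The median log2 fold change of the 17 genes was 0.21, and 16 were positive. The median was positive under each of the 3 scalings (TMM, DESeq2 size factors, upper-quartile factors). The calls were not: upper-quartile scaling left 1 gene higher, Psmd1, where 7.46% of all tested genes were higher, and gave adjusted p of 0.057 for Psmc1, 0.0823 for Psmd2 and 0.0703 for Psmd3. In 7 of the 17 genes the 16 h libraries all lay above the 4 h libraries, beside 19.7% of all tested genes. Which genes passed rests on the libraries kept: 13 were higher without 4 h replicate 3, where 11.1% of all tested genes were higher and 9.73% lower, and 1, Psmd1, was higher when any of the other 5 libraries was left out. In those 5 fits 7.4%, 8.19%, 5.82%, 4.74% and 4.77% of all tested genes were higher.

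The base holds Psmd1 and Psmd2, the large scaffold subunits, and Psmd4, a ubiquitin receptor. Psmd1 (chromosome 1, 86064387 to 86139151, plus strand, GRCm38) stood at 89.31, 91.7 and 82.25 CPM after 4 h and at 120.5, 124.3 and 118.2 CPM after 16 h. The groups were far apart and each was tight. Psmd1 rose by a log2 fold change of 0.46 ± 0.10 (SE, n = 3 and 3; edgeR adjusted p = 0.00867), and it passed in each fit run (0.43 without 4 h replicate 3). Psmd2 stood at 180.2, 176.2 and 202 CPM after 4 h and at 236, 233.7 and 231.2 CPM after 16 h. Its groups did not overlap, and it rose by 0.33 ± 0.10 (edgeR adjusted p = 0.048). Leaving out any library other than 4 h replicate 3 lost the call of Psmd2 (adjusted p between 0.101 and 0.136), and without that library the adjusted p was 0.00482. Psmd4 stood at 104.4, 111.4 and 142.5 CPM after 4 h and at 142, 174.3 and 161 CPM after 16 h. The lowest 16 h library of Psmd4 was just under 4 h replicate 3, so the groups overlapped. Its change of 0.41 ± 0.14 missed edgeR's threshold (adjusted p = 0.0548), while DESeq2 gave 0.0177, and the adjusted p ran from 0.00172 to 0.2 over all alternatives.

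Among the 6 ATPases of the base, which form the unfolding ring, Psmc1 rose and the other 5 were not called. Psmc1 stood at 130.8, 125.6 and 159.6 CPM after 4 h and at 173.2, 182.8 and 194.9 CPM after 16 h, with no overlap. Its log2 fold change was 0.41 ± 0.12 (edgeR adjusted p = 0.0362), and its adjusted p was between 0.0628 and 0.142 when any library other than 4 h replicate 3 was left out. Without that library the change was 0.53. All 6 ATPase changes were positive, from 0.03 for Psmc3 to 0.41 for Psmc1, with 1 turned negative by upper-quartile scaling. Psmc6 stood at 87.03, 88.61 and 83.82 CPM after 4 h and at 94.89, 98.16 and 101.6 CPM after 16 h, not overlapping and not called.

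In the lid, which carries the deubiquitinase Psmd14, 1 of 8 genes under the naming rule was higher, beside 9.18% of all tested genes. Psmd3, a lid scaffold subunit, stood at 90.71, 92.47 and 106.3 CPM after 4 h and at 116.6, 124.7 and 127.6 CPM after 16 h. It rose by 0.35 ± 0.11 (edgeR adjusted p = 0.0421), and lost the call when any library other than 4 h replicate 3 was left out (adjusted p from 0.0718 to 0.15). Without that library the change was 0.44. Psmd11 stood at 113.1, 120.1 and 119.7 CPM after 4 h and at 139.1, 146.2 and 132.2 CPM after 16 h. Psmd12 stood at 96.74, 85.19 and 100.7 CPM after 4 h and at 108.9, 109.9 and 115.7 CPM after 16 h. Neither passed the test, although their groups did not overlap. Both did without 4 h replicate 3 (0.27, edgeR adjusted p = 0.0448, and 0.30, adjusted p = 0.0295). Psmd14 was the single gene of the regulator under the naming rule with a negative change. It stood at 49.73, 47.62 and 59.17 CPM after 4 h and at 52.32, 43.93 and 53.85 CPM after 16 h. Without 4 h replicate 3, 7 of these 8 lid genes were higher, Psmd14 being the exception, where 11.1% of all tested genes were higher. None of the 8 was called when any of the other 5 libraries was left out.

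The ratio of the summed CPM of the 19S genes to that of the 20S core genes was 1.24, 1.27 and 1.12 in the 4 h libraries and 1.49, 1.5 and 1.47 in the 16 h libraries. The mean ratio was 1.21 ± 0.0784 (SD, n = 3) after 4 h and 1.49 ± 0.015 (SD, n = 3) after 16 h, and the groups did not overlap. This ratio was formed after results of these data were known and is a description with no test. The order of the groups is the same without 4 h replicate 3, the lowest of the 4 h values.

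**Figure D2:**
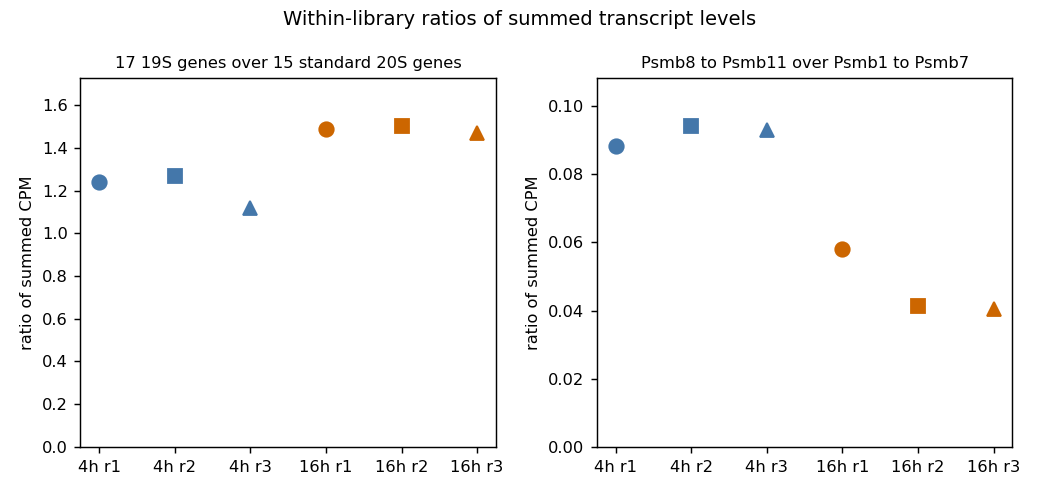
Within-library ratios of summed CPM for each of the 6 libraries: the 19S regulator over the 20S core on the left and the immunoproteasome subunits over the beta ring on the right. The 16 h libraries lie above the 4 h libraries on the left (1.47 to 1.5 against 1.12 to 1.27) and below them on the right.

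Fold changes over all genes also ran with transcript length. Tested coding genes with transcripts under 1000 bases had a median log2 fold change of -0.30, and those over 4000 bases had 0.10. Without 4 h replicate 3 these medians were -0.10 and 0.07. Genes of the 20S core have short transcripts, with a median of 1162 bases, and those of the 19S regulator have a median of 1785 bases. Set against genes of like length, all 17 genes of the regulator lay above the median of their length class, by a median of 0.32, and by 0.35 without that library. Of the 14 core genes 10 lay above theirs, by a median of 0.12, and 13 without that library, again by a median of 0.12. With a smooth trend on length removed from each library, which was chosen after seeing the data, edgeR called 9 genes of the regulator higher and none lower. It then also called 3 core genes higher (Psma5, Psma6 and Psma7), where 10.7% of all tested genes were higher and 9.59% lower. Over the 47 proteasome genes that fit gave 34 positive and 13 negative changes, a median of 0.15, and 15 genes higher and 4 lower. The immunoproteasome genes differed from their length class by a median of -0.84, and all 3 stayed lower in that fit.

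**Figure D3:**
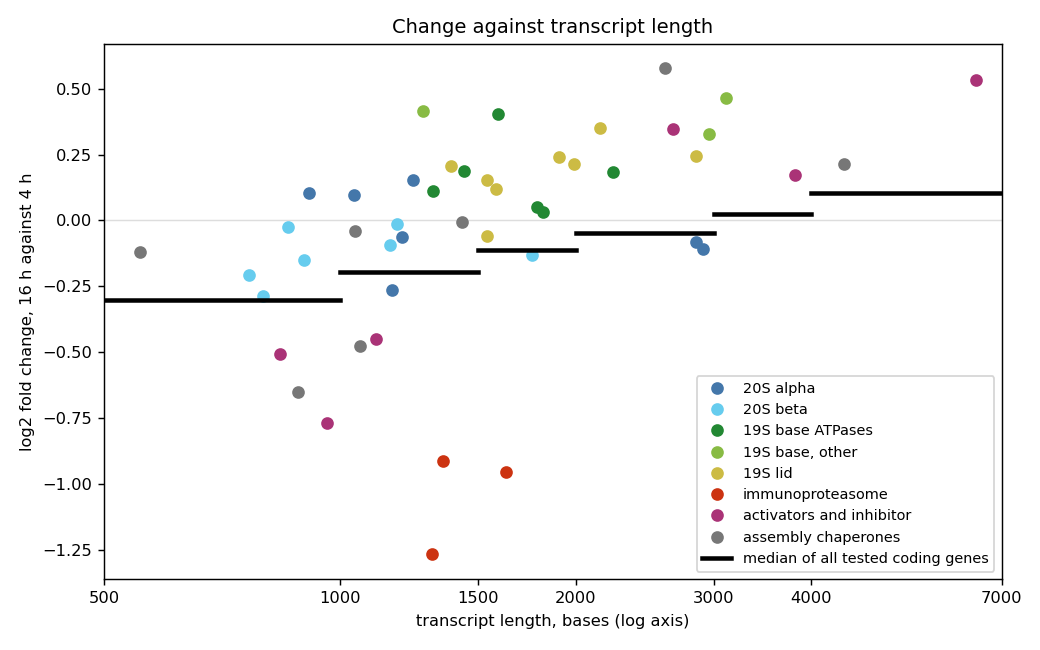
Log2 fold change (16 h against 4 h, vertical axis) against transcript length in bases (log axis) for the tested proteasome genes, with the median of all tested coding genes in each length class as a black line. The class medians run from -0.30 for transcripts under 1000 bases to 0.10 for those over 4000 bases, and the 17 genes of the 19S regulator lie above them.

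**Figure D4:**
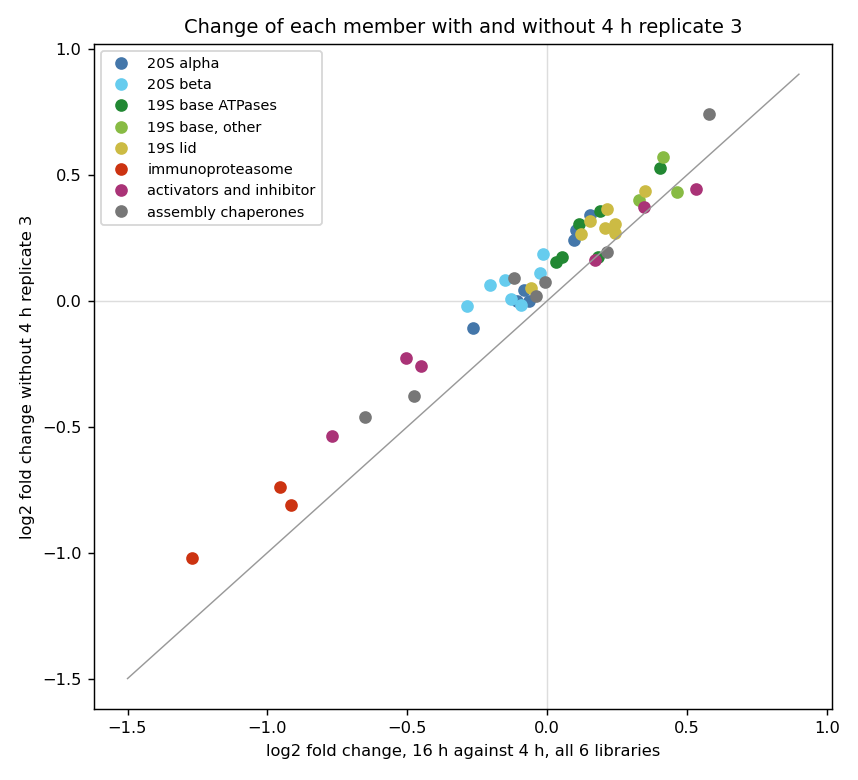
Log2 fold change of each proteasome gene with all 6 libraries (horizontal axis) and without 4 h replicate 3 (vertical axis), by substructure. All 14 genes of the 20S core and 15 of 17 of the 19S regulator move up without that library, Psmd1 and Psmc6 excepted, and the 3 immunoproteasome genes remain below 0.

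All 3 tested immunoproteasome subunits fell after the 16 h fast, beside 9.51% of all tested genes called lower. The 3 include the largest decrease among the proteasome genes. Psmb10 (chromosome 8, 105935735 to 105938444, minus strand, GRCm38) stood at 30.31, 29.51 and 45.96 CPM after 4 h and at 16.37, 14.4 and 13.13 CPM after 16 h. The highest 16 h library was well below the lowest 4 h library. Its log2 fold change was -1.27 ± 0.18 (SE, n = 3 and 3; edgeR adjusted p = 7.68e-04), and it passed in each fit run. Psmb9 (chromosome 17, 34181987 to 34187764, minus strand) stood at 12.65, 15.66 and 16.71 CPM after 4 h and at 9.831, 6.206 and 7.658 CPM after 16 h. Its log2 fold change was -0.91 ± 0.18 (edgeR adjusted p = 0.00502), with no overlap and a call in each fit run. Psmb8 (chromosome 17, 34197721 to 34201454, plus strand) stood at 11.59, 12.76 and 17.65 CPM after 4 h and at 9.431, 6.327 and 5.805 CPM after 16 h. The groups of Psmb8 did not overlap, 16 h replicate 1 being the nearest to the 4 h libraries. Its log2 fold change was -0.96 ± 0.21 (edgeR adjusted p = 0.0108), and leaving out 16 h replicate 2 or 3 lost the call, at adjusted p of 0.0538 and 0.0549. Without 4 h replicate 3 the log2 fold changes of Psmb10, Psmb9 and Psmb8 were -1.02, -0.81 and -0.74. All 3 were called in that fit, where 9.73% of all tested genes were lower. Of the exon bases of Psmb8, 14.7% overlap the gene Gm20496, and 5.79% of those of Psmb9 overlap Tap1. The strand setting of the counting is not given in the sources used here, so reads there may not be told apart.

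Promoters of Psmb5, Psmb6, Psmb8 and Psmb9 are shown because Psmb8 and Psmb9 fell while the subunits they replace were not called. The 250 bases before the RefSeq start (GRCm38.p6) are given 5′ to 3′ on the gene's strand, with motif matches in capitals.
Psmb5 (chr14:54617996-54618245, minus strand): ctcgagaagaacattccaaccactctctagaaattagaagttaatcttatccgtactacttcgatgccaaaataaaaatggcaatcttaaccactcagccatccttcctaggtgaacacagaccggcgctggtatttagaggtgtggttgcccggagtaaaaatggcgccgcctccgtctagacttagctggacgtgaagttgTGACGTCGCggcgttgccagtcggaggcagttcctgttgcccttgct
Psmb8 (chr17:34197945-34198194, plus strand): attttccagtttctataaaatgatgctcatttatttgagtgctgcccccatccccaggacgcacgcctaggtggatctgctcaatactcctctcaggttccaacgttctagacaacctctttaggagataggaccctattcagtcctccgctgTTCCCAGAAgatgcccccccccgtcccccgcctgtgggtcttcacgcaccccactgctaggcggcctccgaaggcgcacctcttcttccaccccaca
Psmb6 (chr11:70525107-70525356, plus strand): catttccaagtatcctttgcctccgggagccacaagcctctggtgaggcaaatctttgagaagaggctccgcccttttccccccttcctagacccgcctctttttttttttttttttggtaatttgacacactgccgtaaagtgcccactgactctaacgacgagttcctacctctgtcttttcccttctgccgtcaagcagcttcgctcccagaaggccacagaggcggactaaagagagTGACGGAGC
Psmb9 (chr17:34187331-34187580, minus strand): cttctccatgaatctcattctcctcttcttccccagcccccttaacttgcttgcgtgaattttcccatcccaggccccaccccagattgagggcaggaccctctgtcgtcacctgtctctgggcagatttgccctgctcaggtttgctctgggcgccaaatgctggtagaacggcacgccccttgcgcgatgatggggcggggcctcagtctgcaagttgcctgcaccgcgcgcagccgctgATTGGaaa
The capitals mark TGACNNNGC, the antioxidant response element core bound by NRF factors, in Psmb5 and Psmb6. They mark TTCNNNGAA, the core of the interferon gamma activated site, in Psmb8, and the reverse of CCAAT in Psmb9. Both strands were searched over 300 bases (250 before and 50 after the start), also for the interferon response element core, which is GAAA and again GAAA with 2 bases between. Of the 50 genes 42 had a RefSeq window, 45 windows in all. TGACNNNGC was in 6 of the 45 windows (13.3%) and in 12.4% of all 32851 windows. CCAAT was in 15 (33.3%, against 37.4%), the interferon response element core in 5 (11.1%, against 3.44%) and TTCNNNGAA in 3 (6.67%, against 8.3%). The 5 were those of Psmb3, Psmd4, Psmd9, Psme1 and Psmg4, and none of the 4 windows of immunoproteasome and thymoproteasome genes was among them. Psmb10, which fell most, had a window with none of these motifs, and its counterpart Psmb7 had no window. The 3 with TTCNNNGAA were those of Psmb8, of Psmd2, which rose, and of Psmg1, which was not called. The 6 with TGACNNNGC were those of Psmb5, Psmb6, Psmc6, Psmd9, Psmd12 and Psme4. These are matches of letters, and a window without a match lacks those letters only.

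Set against its counterpart within each library, each immunoproteasome transcript took a smaller share after 16 h. The level of Psmb8 per kilobase of exon was 8.25%, 9.55% and 8.58% of that of Psmb5 after 4 h and 6.22%, 4.76% and 3.94% after 16 h. Psmb9 was at 5.75%, 6.92% and 4.76% of Psmb6 after 4 h and at 4.49%, 2.89% and 3.48% after 16 h. Psmb10 was at 87.1%, 81.7% and 114% of Psmb7 after 4 h and at 49.2%, 40.0% and 37.6% after 16 h. None of the 3 ratios overlapped between the groups. Their log2 differences were -0.85, -0.69 and -1.15, each with p = 0.1 in a 2-sided exact permutation test, adjusted p = 0.1 over the 3 ratios, the smallest p that 3 against 3 libraries allow. These differences were -0.86, -0.83 and -1.01 without 4 h replicate 3. The level of each ratio depends on the length used, and the log2 difference between the groups does not. Per kilobase of the transcript with the longest coding stretch, a scale added after seeing the data, Psmb8 was at 17.1%, 19.8% and 17.8% of Psmb5 after 4 h and at 12.9%, 9.88% and 8.18% after 16 h. On that scale Psmb9 was at 6.63%, 7.99% and 5.49% of Psmb6 after 4 h and at 5.18%, 3.34% and 4.01% after 16 h. Psmb10 was at 38.4%, 36.0% and 50.3% of Psmb7 after 4 h and at 21.7%, 17.6% and 16.6% after 16 h, well under the values per exon kilobase.

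Immunoproteasome subunits are made at high level in leukocytes, and in bulk tissue fewer cells of a type and less RNA per cell cannot be told apart. Marker sums of leukocytes were therefore set beside these genes. The 3 pan-leukocyte genes summed to between 13.1 and 19.7 CPM after 4 h and between 11.5 and 15.3 CPM after 16 h. The 6 B and plasma cell genes summed to 7.93 to 11.4 and 3.79 to 7.87 CPM, the 8 T and NK cell genes to 2.87 to 5.61 and 1.93 to 3.5 CPM, and the 5 dendritic cell genes to 2.19 to 2.98 and 1.57 to 1.96 CPM. The 8 Kupffer cell genes summed to 117 to 206 CPM after 4 h and 109 to 130 CPM after 16 h. The counts allowed a test of 8 of 8 Kupffer cell, 3 of 3 pan-leukocyte, 4 of 6 B and plasma cell, 2 of 8 T and NK cell, 3 of 5 dendritic cell and 3 of 8 neutrophil genes. Among those, Timd4 of the Kupffer list was called lower by edgeR, and no other gene was called. Most of these markers nevertheless had negative changes. They were negative in 7 of 8 Kupffer cell genes (median log2 fold change -0.26, 3 lower at an unadjusted p under 0.05), in 3 of 3 pan-leukocyte genes (-0.47, 2 lower) and in 4 of 4 B and plasma cell genes (-0.94, 3 lower). They were also negative in 2 of 2 T and NK cell genes (1 lower), 3 of 3 neutrophil genes (1 lower) and 2 of 3 dendritic cell genes (0 lower), and none of the 6 lists had a gene higher at that level. Kupffer (206.1 CPM), pan-leukocyte (19.69), B and plasma cell (11.44) and neutrophil (17.29) sums were highest in 4 h replicate 3. The remaining neutrophil sums after 4 h were 2.281 and 2.384 CPM. T and NK cell and dendritic cell sums were highest in another 4 h library. Marker changes without 4 h replicate 3 are not given here. Ly6g of the neutrophil list had 0 counts in 5 libraries, 4 h replicate 3 excepted. Outside leukocytes, 4 of 5 cholangiocyte genes (median log2 fold change -0.41) and 4 of 6 hepatocyte genes (-0.14) were negative. So were 2 of 5 stellate cell genes (0.01) and 2 of 6 sinusoidal endothelial cell genes (0.12). The part of leukocytes in the fall of the immunoproteasome genes was not tested.

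Of 15 genes of the interferon gamma response that serve antigen presentation or lie beside the immunoproteasome genes, 5 were lower and none was higher in edgeR, with 8 lower and none higher at an unadjusted p under 0.05. DESeq2 called 4 lower and none higher. Among all tested genes edgeR called 9.51% lower and DESeq2 4.77%. Their median log2 fold change was -0.40, with 13 negative. Without 4 h replicate 3 it was -0.32 with 5 lower, where 9.73% of all tested genes were lower. Irf1, the transcription factor that drives immunoproteasome genes, stood at 28.18, 24.17 and 32.59 CPM after 4 h and at 17.39, 17.41 and 20.01 CPM after 16 h. It fell by 0.63 on the log2 scale (SE 0.13, edgeR adjusted p = 0.00725), and the groups did not overlap. Irf1 changed by -0.51 without 4 h replicate 3. Tap2, a subunit of the peptide transporter, changed by -0.57 ± 0.13 (adjusted p = 0.0124). B2m, the light chain of MHC class I and the most abundant of the list, changed by -0.40 ± 0.11 (adjusted p = 0.0287). Tap2 changed by -0.51 and B2m by -0.32 without that library, both still called. Tapbp and Ciita, named after their values were seen, made up the 5 of the main fit. Without 4 h replicate 3 Ciita was not called (-1.21, edgeR adjusted p = 0.0615). Gbp4, named likewise, was called in that fit (-0.82, adjusted p = 0.0366).

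Of the 6 tested genes of activators and their inhibitor, 2 were higher and 2 lower, beside 9.18% and 9.51% of all tested genes, and the activators split by type. Psme1 and Psme2 encode the alpha and beta subunits of PA28, the interferon-induced cap, and both were lower. Psme2 (chromosome 14, 55587441 to 55591113, minus strand, GRCm38) stood at 66.03, 68.24 and 100.6 CPM after 4 h and at 45.46, 46.04 and 46.15 CPM after 16 h. Its groups did not overlap, and its log2 fold change was -0.77 ± 0.15 (SE, n = 3 and 3; edgeR adjusted p = 0.00521), called in each fit run. Without 4 h replicate 3 it was -0.54. Psme1 stood at 87.92, 79.71 and 118 CPM after 4 h and at 66.37, 69.66 and 72.79 CPM after 16 h. Its log2 fold change was -0.45 ± 0.14 (edgeR adjusted p = 0.0447). Of the 6 libraries only 4 h replicate 2 could be left out without losing the call: without 4 h replicate 3 the value was -0.26 with an adjusted p of 0.0507, and leaving out 4 h replicate 1 or any 16 h library gave 0.0586 to 0.145. The call was also lost with the length trend removed (-0.25, adjusted p = 0.0819). Psme2b, a copy of Psme2 whose coding bases are 99.3% identical, had 430 counts beside 7688 of Psme2 over the 6 libraries, so its reads are uncertain. It was not called (log2 fold change -0.51 ± 0.24).

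Psme3 and Psme4 encode the nuclear caps PA28 gamma and PA200, and both were higher. Psme4 (chromosome 11, 30771726 to 30880361, plus strand, GRCm38) stood at 92.88, 94.6 and 75 CPM after 4 h and at 129.9, 124.2 and 125.4 CPM after 16 h. It rose by 0.53 ± 0.11 (edgeR adjusted p = 0.00857), with no overlap and a call in each fit run (0.44 without 4 h replicate 3). Psme3 stood at 43.92, 48.46 and 47.58 CPM after 4 h and at 55.92, 64.47 and 57.64 CPM after 16 h, again without overlap. It rose by 0.35 ± 0.10 (edgeR adjusted p = 0.0379), and the adjusted p was between 0.0659 and 0.164 when 4 h replicate 1 or any 16 h library was left out. Upper-quartile scaling gave 0.0655 and so lost the call of Psme3, and without 4 h replicate 3 the change was 0.37. Within libraries, the CPM of Psme4 was 1.06, 1.19 and 0.636 times that of Psme1 after 4 h and 1.96, 1.78 and 1.72 times after 16 h. Psmf1, the inhibitor PI31, stood at 27.59, 28.42 and 26.58 CPM after 4 h and at 29.45, 29.22 and 34.3 CPM after 16 h, and was not called (0.17 ± 0.11).

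**Figure D5:**
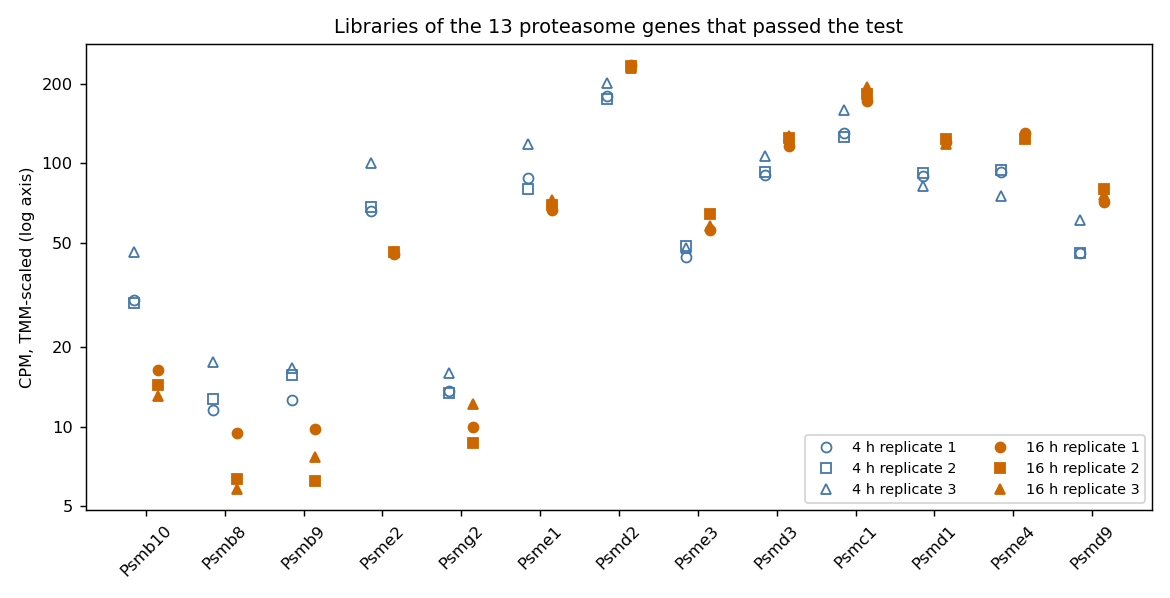
CPM (TMM-scaled, log axis) of the 13 proteasome genes that passed the test, with a point for each of the 6 libraries by fasting time. In each gene the 3 libraries of the 16 h fast lie on one side of the 3 of the 4 h fast. The genes were chosen by the test on these same libraries, which favours such separation.

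Of the 7 assembly chaperones, 1 was higher and 1 lower, beside 9.18% and 9.51% of all tested genes. Psmd9, a chaperone of the base, stood at 45.65, 45.62 and 61.16 CPM after 4 h and at 71.58, 79.84 and 76.09 CPM after 16 h. Its groups did not overlap, and it rose by 0.58 ± 0.13 (SE, n = 3 and 3; edgeR adjusted p = 0.0102), the largest increase among the tested proteasome genes. The adjusted p was 0.0546 without 16 h replicate 2, and every other fit run called it, with 0.74 without 4 h replicate 3. Psmd9 (chromosome 5, 123169413 to 123250131, plus strand, GRCm38) shares 25.5% of its exon bases with the antisense gene Gm26745, so its count is uncertain in part. Its promoter is shown because it is the gene that rose most. The capitals mark the interferon response element core and then TGACNNNGC.
Psmd9 (chr5:123227940-123228189, plus strand): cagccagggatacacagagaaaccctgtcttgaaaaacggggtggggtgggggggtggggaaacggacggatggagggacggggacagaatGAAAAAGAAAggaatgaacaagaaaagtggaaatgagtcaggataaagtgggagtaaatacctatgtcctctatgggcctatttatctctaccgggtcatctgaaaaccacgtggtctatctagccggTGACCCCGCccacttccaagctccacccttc
The TGACNNNGC match lies at positions -31 to -23 from the start.

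The chaperones Psmg1 and Psmg2 form a pair that gathers alpha subunits, and Psmg3 and Psmg4 form another. Psmg2 stood at 13.61, 13.47 and 15.98 CPM after 4 h and at 9.965, 8.677 and 12.19 CPM after 16 h. It fell by 0.48 on the log2 scale (SE 0.15, edgeR adjusted p = 0.0489). The call is at the threshold: DESeq2 gave 0.0582, the alternatives ran from 0.0271 to 0.185, and of the 6 libraries 16 h replicate 3 was the only one whose removal kept it. The change was -0.38 without 4 h replicate 3, and with the length trend removed it was -0.28 (adjusted p = 0.163). Its partner Psmg1 had overlapping groups and a log2 fold change of -0.04. Psmg3 stood at 4.819, 3.802 and 6.11 CPM after 4 h and at 3.336, 3.013 and 3.047 CPM after 16 h, without overlap and not called (-0.65 ± 0.21, edgeR adjusted p = 0.0531). Upper-quartile scaling called it (adjusted p = 0.04), and without 4 h replicate 3 it was -0.46 (adjusted p = 0.141). Psmg4, Psmd5 and Psmd10 were not called, and the 16 h libraries of Psmd5 all lay above the 4 h libraries.

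Genes of the ubiquitin route outside the naming rule were taken from fixed lists. Of 10 genes for shuttle factors and the VCP complex, which deliver substrates to the proteasome, 5 were higher and none lower in edgeR, with none lower at an unadjusted p under 0.05. DESeq2 called 8 higher. Among all tested genes edgeR called 9.18% higher and DESeq2 5.37%. All 10 changes were positive, with a median log2 fold change of 0.34. Nploc4, a VCP cofactor, stood at 59.22, 73.08 and 66.85 CPM after 4 h and at 102.6, 117.3 and 99.72 CPM after 16 h. It rose by 0.68 ± 0.12 (edgeR adjusted p = 0.0023), with no overlap, and by 0.70 without 4 h replicate 3. Vcp itself, the most abundant of the list, was not called (0.27 ± 0.11, adjusted p = 0.0953), but passed without 4 h replicate 3 (0.35, adjusted p = 0.0117). The count was 9 without that library, where 11.1% of all tested genes were higher. It was between 1 and 4 when any other library was left out, where 4.74% to 8.19% of all tested genes were higher.

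Of 12 genes for known regulators of proteasome genes, 1 was higher and 3 were lower, beside 9.18% and 9.51% of all tested genes. The counts were 3 and 4 without 4 h replicate 3, beside 11.1% and 9.73% of all tested genes. Maff, a small MAF protein, stood at 8.313, 8.829 and 12.48 CPM after 4 h and at 2.313, 2.772 and 2.059 CPM after 16 h. It fell by 2.06 on the log2 scale (SE 0.21, edgeR adjusted p = 1.01e-04), more than any of the proteasome genes. Mafk, of the same family, fell by 0.53 (SE 0.12, adjusted p = 0.00892). Ddi2, the protease that activates NRF1, rose by 0.38 ± 0.12 (adjusted p = 0.0468), and 18.3% of its exon bases are shared with another gene. Nfyb, a CCAAT-binding subunit named after its values were seen, was the other gene called lower. Nfe2l1, which encodes NRF1 and was also named after its values were seen, was not called (0.28 ± 0.10, adjusted p = 0.0808). Nfe2l2, which encodes NRF2 and was named likewise, changed the other way and was not called (-0.31 ± 0.11, adjusted p = 0.0643). With 4 h replicate 3 left out, Maff changed by -1.84, Mafk by -0.56, Ddi2 by 0.29, Nfe2l1 by 0.27 and Nfe2l2 by -0.34. Each of these was called in that fit.

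Of 11 further proteasome proteins found by symbol, 3 were higher and 1 was lower, beside 9.18% and 9.51% of all tested genes. Without 4 h replicate 3 these counts were 4 and 1, beside 11.1% and 9.73% of all tested genes. Zfand5, a proteasome-activating zinc finger protein, stood at 64.7, 59.74 and 56.51 CPM after 4 h and at 79.45, 78.63 and 81.77 CPM after 16 h, and rose by 0.41 ± 0.10 (edgeR adjusted p = 0.0172). Ecpas, a proteasome adaptor, rose by 0.43 ± 0.11 (adjusted p = 0.0206). Txnl1, a thioredoxin of the regulator and the most abundant of the list, was not called (-0.02 ± 0.10). Ube3c, higher, and Pomp, the core maturation factor, lower by -0.45 ± 0.14 (adjusted p = 0.0434), were named after their values were seen. Zfand5 was at 0.37, Ecpas at 0.36 and Pomp at -0.25 without 4 h replicate 3, all called. Of 6 ubiquitin and E1 enzyme genes none passed edgeR's test, none had an unadjusted p under 0.05 and DESeq2 called none. Ubb, a polyubiquitin gene and the most abundant of the 6, stood at 371.5, 368.5 and 484 CPM after 4 h and at 395, 415.5 and 395.3 CPM after 16 h, with overlapping groups.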

How the data were processed

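Liver RNA of mice fasted for 4 h (3 libraries) and for 16 h (3 libraries) was sequenced. The authors trimmed reads with Trimmomatic, aligned them with STAR to GRCm38 (mm10) and counted them with HTSeq, per the labels and the submitters' processing notes. The deposited values are raw counts per gene with 5 summary lines, of which reads in no gene (6.437% to 7.142%) and ambiguous reads (5.779% to 6.595%) were left out of library sizes. Release of the annotation and strand setting: neither is stated in the sources used here. Identifiers were matched to GENCODE M21 (55230 of 55471 found, 99.57%).

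Counts were tested with edgeR 4.0.16 (R 4.3.3): filterByExpr, TMM scaling, robust quasi-likelihood fit on fasting time, Benjamini-Hochberg adjustment over 13812 genes, threshold 0.05. Tested genes held 99.88% of counts, and the biological coefficient of variation was 14.3%. On simulated data null p-values were near their nominal rate, while the share of false calls among all calls was above the nominal rate when each gene kept its own dispersion and below it with dispersions on the trend. No libraries agreed within sampling noise. Alternatives were DESeq2 1.42.0, other scalings, no filter, a replicate block, leaving out each library and, added after seeing the data, removal of a trend on transcript length (span 0.3) and ratios per kilobase of transcript.

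Every member of the naming rule could be named; from each other list, the 2 genes with the smallest adjusted p and the most abundant were named. A gene that this rule picks is not reported here. The members and lists were chosen with earlier results of these data known. Other lists named were hepatocyte, Kupffer, neutrophil, T and NK, B and plasma, dendritic, pan-leukocyte, sinusoidal endothelial, stellate, cholangiocyte and lung markers. Near-identical copies (at least 90% identity over at least 80% of coding bases) were sought with blastn 2.17.0: 15 of 50 members had such a copy, and for 3 the copies' counts passed 5% of their own (Psmd11 at 7.27%, Psme2 at 5.59%, and Psme2b). Protein sequences were not analysed here.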

Additional observations from a re-analysis of the deposited data

How the results depend on the processing

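Without a block the counts of calls were 1268 higher and 1313 lower over all genes. Leaving out each library gave 671 to 1594 higher and 696 to 1393 lower. The shares of all tested genes called higher and lower were 9.18% and 9.51% in the main fit. They were 7.46% and 11.6% with upper-quartile scaling, and 10.7% and 9.59% with the length trend removed. DESeq2 gave 5.37% and 4.77%, DESeq2 size factors 9.59% and 9.3%, and no low-count filter 5.81% and 5.8%. With each library left out, 4.74% to 11.1% were higher and 4.94% to 9.73% lower. Among proteasome genes the main counts were 7 higher and 6 lower. Upper-quartile scaling gave 3 higher and 7 lower, and it shifted the median of all genes to -0.08. Removing the length trend gave 15 higher and 4 lower, and leaving out each library 2 to 18 higher and 3 to 6 lower. With upper-quartile scaling 1 gene of the 19S regulator was higher (0 ATPases, 1 other base gene, 0 lid genes), with the trend removed 9 (2 ATPases, 3 other base genes, 4 lid genes), and with each library left out 1 to 13 (0 to 3, 1 to 3, 0 to 7). The 20S core had 3 genes higher with the trend removed, all 3 in the alpha ring, and 0 to 2 with each library left out. Of the chaperones, 0 were lower with DESeq2, with DESeq2 size factors and with the trend removed, 2 with upper-quartile scaling, and 0 to 1 lower and 0 to 1 higher with each library left out. Of the activators, 1 was higher with upper-quartile scaling, 1 was lower with the trend removed, and 1 to 2 in each direction with each library left out. Of the other lists, shuttle factors had 8 higher with DESeq2, 2 with upper-quartile scaling, 9 with the trend removed and 1 to 9 with each library left out. Regulators had 2 higher with DESeq2, 0 with upper-quartile scaling, 3 with the trend removed and 0 to 3 with each library left out, where 1 to 4 were lower. Other proteasome proteins had 2 lower without the low-count filter and under the block, and 0 to 4 higher and 0 to 2 lower with each library left out. The interferon list had 2 to 5 lower with each library left out. The ratios to the counterpart subunits ranged from -1.02 to -0.69, -0.86 to -0.54 and -1.27 to -1.01. No change of a called gene turned its sign in any fit run. The causes were not tested.

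The replicate numbers of the titles did not pair the libraries: same-numbered libraries' deviations correlated at 0.0876, 0.0933 and 0.0455. Each 4 h library correlated best with its own number, but 16 h replicate 3 correlated best with 4 h replicate 1 (0.0662). Such values are at most a hint from the data and not the design. The fit with the replicate block called 1352 genes higher and 1396 lower (9.79% and 10.1% of all tested genes), and 7 and 6 proteasome genes. Of the called proteasome genes it lost Psmd2 (adjusted p = 0.0526), and it gained Psmd4. The number of libraries, 3 a group, limits the precision.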
